A study of Mus musculus with 41 samples.

Results

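The 9 genes *Hnrnpl*, *Hnrnph1*, *Hnrnpdl*, *Hnrnpa2b1*, *Hnrnpab*, *Hnrnpm*, *Ptbp1*, *Ptbp2* and *Tia1* encode RNA-binding proteins that regulate splicing, and they were taken by symbol from the RNA abundance files. They are 9 of 55385 genes with RNA values and 9 of 22438 genes with footprint counts, and they hold 126 of the 142552 transcripts that were quantified. By annotated type, 43 of the 126 transcripts were protein-coding, 40 had a retained intron, 29 were processed transcripts with no annotated reading frame, and 14 carried the annotation type nonsense-mediated decay (NMD). The NMD transcripts belonged to 6 of the genes, with 4 for *Tia1*, 3 for *Ptbp1*, 2 each for *Hnrnpdl*, *Hnrnpa2b1* and *Ptbp2*, and 1 for *Hnrnpl*. *Hnrnph1*, *Hnrnpm* and *Hnrnpab* had none. Autoregulation itself was not measured in these libraries.

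Heterogeneous nuclear ribonucleoproteins (hnRNPs) and their relatives coat nascent transcripts and decide which exons are joined. Many of them bind their own pre-mRNA and shift its splicing to a form with a premature stop codon when the protein is abundant, through a poison exon, a skipped exon or a spliced 3' UTR. NMD, which needs UPF2, removes such mRNAs when an exon junction complex stays behind the terminating ribosome, so the unproductive form usually stays low. HBS1L and PELO form a complex that releases ribosomes stalled on an mRNA.

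The study removed *Hbs1l*, *Pelo* or *Upf2* from mice and from mouse embryonic fibroblasts (MEFs), and sequenced ribosome-protected fragments (footprints) in 30 libraries and mRNA in 11. Whole E8.5 embryos of strain C57BL/6NJ were *Hbs1l*-/- or wild type, with 3 libraries each from pooled embryos. Cerebella at P14, on C57BL/6J, came from mice with Atoh-Cre and a conditional *Hbs1l* knockout (cKO) or with Atoh-Cre and *Hbs1l*+/+, again 3 and 3. Atoh1-Cre acts in the granule cell lineage, and the cKO carried 1 floxed and 1 null *Hbs1l* allele, so other cerebellar cells kept a single copy, and the cKO mice carried the allele of the tRNA gene *n-Tr20* that the C57BL/6J strain has. The MEFs (C57BL/6) all carried CAG-Cre ER, a Cre that tamoxifen activates, and control and mutant MEFs alike were given tamoxifen. They were *Hbs1l* cKO, *Pelo* cKO, *Upf2* cKO or CAG-Cre ER alone, and controls and knockouts alike carried the C57BL/6J *n-Tr20* allele. By the study's methods the *Hbs1l* cKO MEFs carried 1 floxed and 1 null allele, while both alleles were floxed in the *Pelo* and *Upf2* cKO MEFs. MEF footprints came in 3 batches, each with 3 mutant libraries and a pool of 3 control libraries. MEF RNA came in a single batch with 3 *Hbs1l*-/-, 2 *Pelo*-/-, 3 *Upf2*-/- and 3 control libraries. By the study's methods each cerebellum library came from a single mouse, each embryo library from its own pool and each MEF library from the cells of a single embryo.

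Footprint libraries held 2634480 to 7298812 counts in embryos, 10919139 to 22591768 in cerebellum and 5782990 to 25607974 in MEFs, and RNA libraries held 22713643 to 86425762 estimated counts. *Hbs1l* and *Pelo* fell in their own mutants: *Hbs1l* footprints by 3.60 (embryo), 1.5 (cerebellum) and 4.15 (MEFs) on the log2 scale, and *Pelo* footprints by 3.78. *Upf2* went the other way, with footprints higher by 1.09 ± 0.08 (log2 ± SE, adjusted p = 3.12e-06) and RNA by 1.33 ± 0.24 (adjusted p = 0.00331, edgeR quasi-likelihood tests with Benjamini-Hochberg adjustment). The deposited totals cover the whole gene and were not checked exon by exon, so these libraries are called the libraries labelled *Upf2*-/-. *Upf2* RNA was also lower in *Pelo*-/- MEFs, with a log2 change of -1.38 ± 0.23 (adjusted p = 0.00548). Control libraries of the same number in the 3 footprint pools were nearly identical, with a chi-square per gene of 1.1 to 1.19 against 4.06 to 12.6 for other pairs of controls. The 3 MEF footprint comparisons therefore share their control material, the 3 RNA comparisons share a control group, and their results below stand side by side without a test across them unless a test of the difference is named. The summed footprints of MEF markers (*Col1a1* and others) were 27780 to 28470 CPM in the control pools and 32530 to 38480 CPM in the mutants, and their part in the results was not tested.

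The bases around the stop codon of the most abundant NMD transcript of each gene show where the reading frame ends. The bases come from GENCODE M21 on GRCm38 (mm10), 5' to 3' on the transcript, 15 bases before and 12 after the stop codon, which is in capitals:
Hnrnpl-213: gtgctaactcactgtTGAagcgtccaatgg
Hnrnpdl-205: cccgctggaccccagTAGccttccccacta
Hnrnpa2b1-207: ggaaggagcagatatTAAgcttcttcctac
Ptbp1-201: gtgatgtgcagcgggTGAagatcctgttca
Ptbp2-206: gagatgtgcagcgcgTGAagattctgtaca
Tia1-218: cagaattgccctggcTAActacaagctacg

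*Hnrnpl-213* holds a 70-nucleotide exon at chr7:28817335-28817404 that its protein-coding transcript *Hnrnpl-202* lacks, and its TGA (chr7:28817391-28817393, plus strand) lies inside this exon, 842 nucleotides before the last exon junction. *Ptbp1-201* skips a 34-nucleotide coding exon at chr10:79862014-79862047 of the protein-coding *Ptbp1-216*, and *Ptbp2-206* skips a 34-nucleotide exon at chr3:119724612-119724645. *Ptbp1-201* also lacks a 78-nucleotide coding exon (chr10:79860117-79860194) of *Ptbp1-216*, a multiple of 3. The 34-nucleotide exons are not multiples of 3, and in both transcripts the frame ends at a TGA 361 nucleotides before the last junction (chr10:79862473-79862475, plus strand, and chr3:119724160-119724162, minus strand). *Tia1-218* adds a 66-nucleotide exon at chr6:86423606-86423671 whose TAA (chr6:86423640-86423642, plus strand) lies 519 nucleotides before the last junction.

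*Hnrnpdl-205* has an exon 1 that runs 146 nucleotides past the exon 1 junction of the protein-coding *Hnrnpdl-202* (chr5:100038574-100038719, minus strand). Its annotated frame of 100 codons opens at the first base of the transcript and ends at a TAG in this extension (chr5:100038593-100038595), 860 nucleotides before the last junction, and its last exon (chr5:100035426-100035739) also differs. *Hnrnpdl-201* keeps the stop of the protein-coding *Hnrnpdl-202* (TAA, chr5:100036125-100036127) but splices an added 105-nucleotide exon at chr5:100035635-100035739 behind it, so the stop lies 126 nucleotides before the last junction, against 21 in *Hnrnpdl-202*. Its stop and the bases around it are the same for both transcripts:
Hnrnpdl-201: aattaccagccctacTAAaggaggacgctg

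*Hnrnpa2b1-204*, the protein-coding transcript of this gene with the most RNA, ends in a 495-nucleotide 3' UTR exon (chr6:51462760-51463254) that begins 21 nucleotides behind its TAA (chr6:51463432-51463434, minus strand). *Hnrnpa2b1-207*, *Hnrnpa2b1-209* and *Hnrnpa2b1-202*, which is annotated as protein-coding, keep this TAA, lack that exon and carry instead a 136-nucleotide exon (chr6:51461920-51462055) and a further last exon, so their last junction lies 157 nucleotides behind the stop. *Hnrnpa2b1-201* lacks both the 495- and the 136-nucleotide exon, and its last junction lies 21 nucleotides behind the stop. All 14 NMD transcripts, by the annotation's own definition, and *Hnrnpa2b1-202* among the 35 protein-coding transcripts with an annotated stop had it over 50 nucleotides before the last junction. Other member transcripts skip coding exons whose length is not a multiple of 3, whatever their type, among them the processed transcripts *Hnrnph1-215* (a 139-nucleotide exon at chr11:50381459-50381597), *Hnrnpm-209* (53 nucleotides, chr17:33670081-33670133) and *Ptbp1-203* (31 nucleotides, chr10:79856504-79856534).

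Footprints of the 9 genes in MEFs were compared between each mutant and its controls, as counts that are not scaled to RNA. In *Hbs1l*-/- MEFs 7 of the 9 genes rose and none fell, against 17.4% of all 11984 genes tested that rose and 16.7% that fell. The counts in *Pelo*-/- MEFs were 7 higher and 1 lower (all genes, 22.9% higher and 21.2% lower of 12486). In the libraries labelled *Upf2*-/- they were 7 higher and none lower (all genes, 22.3% higher and 21.1% lower of 12166). The median log2 change of the 9 genes was 0.27, 0.31 and 0.34, beside -0.01, 0.00 and 0.00 for all genes tested. *Hnrnpl*, *Hnrnph1*, *Hnrnpdl*, *Hnrnpa2b1*, *Hnrnpab*, *Hnrnpm* and *Ptbp1* were the 7 in each comparison.

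*Hnrnpdl* encodes an AU-rich element binding protein related to hnRNP D, and it had the largest rise of the 9 in *Hbs1l*-/- and *Upf2*-labelled cells. Its footprints were 81.9, 79.4 and 78.5 CPM (counts scaled to the library size) in *Hbs1l*-/- MEFs and 51.1, 44.4 and 56.1 in their controls. In *Pelo*-/- MEFs they were 74.9, 72.8 and 84.1 against 50.5, 49.7 and 58.7. In the libraries labelled *Upf2*-/- they were 138, 137 and 122 against 52.8, 48 and 56.8. Each mutant library exceeded each control, as for 23.4% (*Hbs1l*), 28.5% (*Pelo*) and 27.5% (*Upf2*-labelled) of all genes tested, and the *Upf2*-labelled libraries were the highest. The log2 changes were 0.66 ± 0.09, adjusted p = 8.45e-05, 0.55 ± 0.09, adjusted p = 0.000786, and 1.34 ± 0.08, adjusted p = 1.32e-06 (± SE, edgeR quasi-likelihood test). The rise in the *Upf2*-labelled libraries was larger than in *Hbs1l*-/- MEFs by 0.67 ± 0.12, adjusted p = 0.00492 (interaction in edgeR). It was larger than in *Pelo*-/- MEFs by 0.79 ± 0.12, adjusted p = 0.00107 in the same test. These were the member calls out of 9 in each test of the difference, where 2.92% of 12334 and 6.27% of 12675 genes were called higher. The control pools in this test hold nearly the same counts, so its degrees of freedom count that material again.

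*Hnrnph1*, whose protein binds runs of guanines near splice sites, had 530.1, 509 and 499.8 CPM in *Hbs1l*-/- MEFs and 356, 316 and 371 in controls. Its values were 455, 448 and 469 in *Pelo*-/- MEFs and 515, 524 and 523 in the libraries labelled *Upf2*-/-, with controls between 308 and 381. The groups did not overlap in any of the 3 comparisons. The log2 changes were 0.56 ± 0.07, adjusted p = 4.58e-05 (*Hbs1l*), 0.41 ± 0.08, adjusted p = 0.00198 (*Pelo*) and 0.58 ± 0.07, adjusted p = 9.29e-05 (*Upf2*-labelled, edgeR). *Hnrnpm*, which encodes a splicing regulator that binds GU-rich RNA, moved alike, with 432, 419 and 407 CPM in *Hbs1l*-/-, 388, 407 and 416 in *Pelo*-/- and 444, 466 and 500.4 in *Upf2*-labelled MEFs. Its 9 control values lay between 300.4 and 336, below all mutant libraries, and the changes were 0.42, 0.33 and 0.57.

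*Hnrnpa2b1*, a regulator of splicing and RNA transport, had 625, 561 and 609 CPM in *Hbs1l*-/- MEFs against 483, 444 and 471, 518, 572 and 609 in *Pelo*-/- against 461, 442 and 470.2, and 614, 696 and 635 in *Upf2*-labelled MEFs against 471, 439 and 464. *Hnrnpl*, which binds CA repeats, had 710.2, 699 and 725, 670.1, 757 and 745 and 709, 772 and 726 CPM in the same order, against controls of 581 to 615. Neither gene overlapped between groups within a comparison. The log2 changes were 0.36, 0.31 and 0.50 for *Hnrnpa2b1* and 0.27, 0.30 and 0.28 for *Hnrnpl*, with SEs of 0.06 to 0.07.

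*Ptbp1* encodes the polypyrimidine tract binding protein, a repressor of exons, and its footprints were 703, 726 and 675 CPM in *Pelo*-/- MEFs and 481, 489.6 and 449 in their controls. They were 587, 542 and 553 in *Hbs1l*-/- and 565, 619 and 596 in *Upf2*-labelled MEFs, above controls of 454 to 501. *Ptbp1* was the member with the largest rise in *Pelo*-/- MEFs (0.57 ± 0.06, adjusted p = 8.58e-05, edgeR), with 0.23 ± 0.06, adjusted p = 0.0106 in *Hbs1l*-/- and 0.30 ± 0.06, adjusted p = 0.00231 in *Upf2*-labelled MEFs. Its change in *Upf2*-labelled minus *Pelo*-/- MEFs was -0.27 ± 0.08, adjusted p = 0.0509, short of the threshold of 0.05. The *Hbs1l*-/- call was lost without *Hbs1l*-/- replicate 1 (0.19) or control replicate 1 (0.22). *Hnrnpab*, a relative of *Hnrnpdl*, rose by 0.18 ± 0.06, adjusted p = 0.0391 in *Hbs1l*-/- MEFs (649.8, 584 and 617 against 556, 518 and 558 CPM), a call that was lost without *Hbs1l*-/- replicate 1 (0.14) or 3 (0.18) or control replicate 1 (0.20) or 2 (0.15). It rose by 0.27 in *Pelo*-/- and 0.34 in *Upf2*-labelled MEFs, calls that held without each library in turn.

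*Ptbp2*, the neuronal relative of *Ptbp1*, and *Tia1*, whose protein binds U-rich RNA and forms stress granules, were the exceptions. *Ptbp2* had 58.2, 51.6 and 58.7, 48.9, 52.1 and 49 and 51, 55.3 and 66.9 CPM in *Hbs1l*-/-, *Pelo*-/- and *Upf2*-labelled MEFs, with controls of 46.3 to 55.4, and overlapped its controls in all 3 comparisons. *Tia1* had 17.3, 19 and 17.6 CPM in *Pelo*-/- MEFs against 22.1, 22.1 and 22.4, lower in each library by -0.31 ± 0.09, adjusted p = 0.0199 (edgeR). That call was lost with DESeq2 (-0.31) and without *Pelo*-/- replicate 1 (-0.28) or 3 (-0.29) or control replicate 1 (-0.31). *Tia1* in *Hbs1l*-/- and *Upf2*-labelled MEFs, at -0.11 and -0.20, overlapped the controls and did not pass the test.

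**Figure D1:**
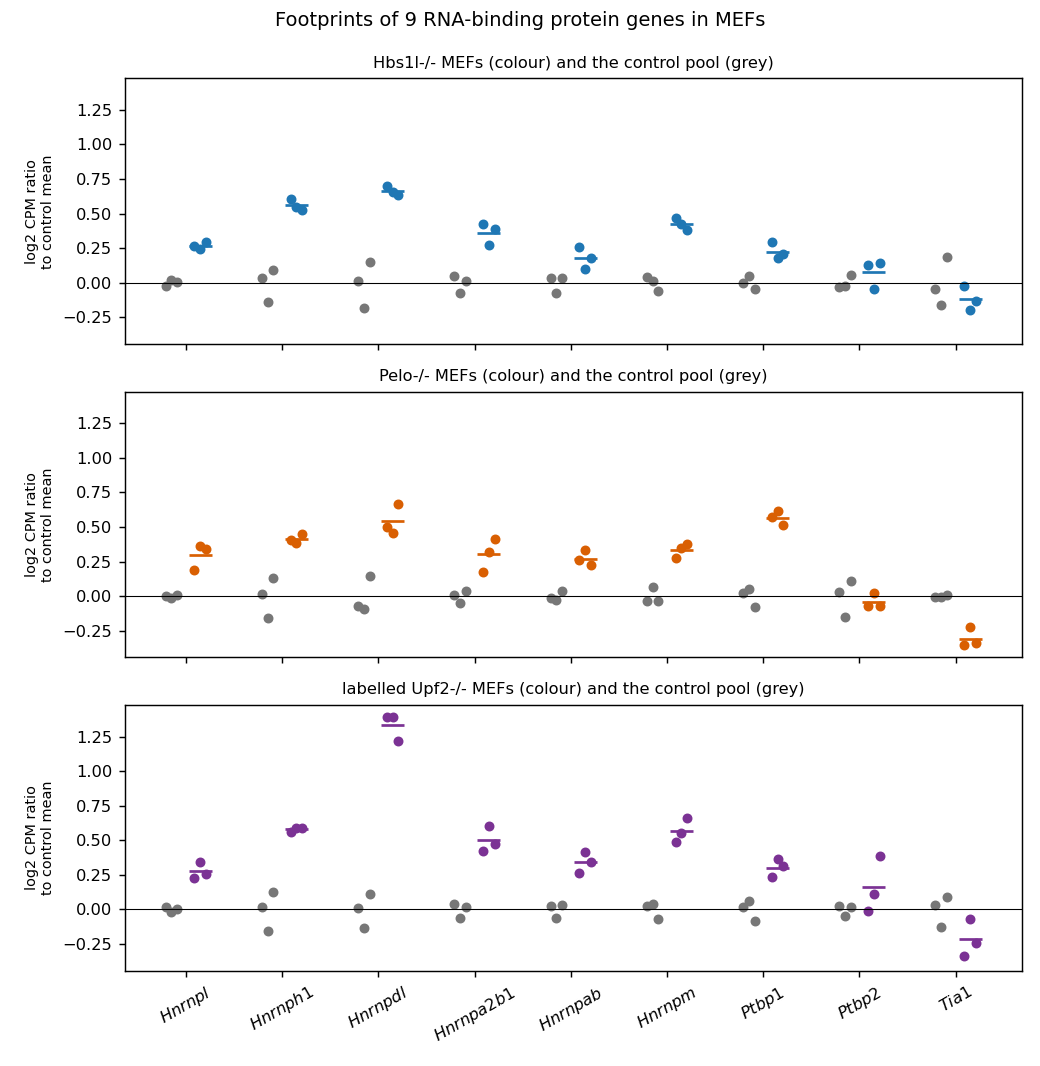
Footprints of each gene in MEFs, as the log2 ratio of each library's CPM to the mean of its control pool, with mutant libraries in colour, control libraries in grey and a bar at the mutant mean of 3 libraries. All mutant points of *Hnrnpl*, *Hnrnph1*, *Hnrnpdl*, *Hnrnpa2b1*, *Hnrnpab*, *Hnrnpm* and *Ptbp1* lie above their controls (23.4%, 28.5% and 27.5% of all genes did so in the *Hbs1l*, *Pelo* and *Upf2* panels), *Ptbp2* overlaps, *Tia1* lies below in *Pelo*-/- MEFs, and *Hnrnpdl* reaches 1.34 in the libraries labelled *Upf2*-/-.

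Gene totals of RNA were compared in the same 3 genotypes. In *Hbs1l*-/- MEFs 2 of the 9 genes rose and none fell (of 15318 genes 12.7% rose and 10.4% fell). Of the 9, none rose and 6 fell in *Pelo*-/- MEFs (all genes, 15.5% higher and 16.6% lower of 14705). In the libraries labelled *Upf2*-/- 1 rose and none fell (all genes, 13.2% higher and 6.76% lower of 15983). The median log2 changes of the 9 genes were 0.06, -0.41 and 0.03. Each value is the gene's share of the library, so fewer cells with the mRNA and less mRNA per cell cannot be told apart.

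The 6 genes that were lower in *Pelo*-/- MEFs were *Hnrnph1*, *Hnrnpm*, *Hnrnpa2b1*, *Hnrnpdl*, *Ptbp2* and *Tia1*, and the first 4 had more footprints in the same cells. *Hnrnph1* had 54.8 and 44.6 CPM of estimated counts in the *Pelo*-/- libraries and 116, 135 and 132 in controls. *Hnrnpm* had 107 and 90.3 against 159.8, 193 and 189.7, and *Hnrnpa2b1* had 278 and 262 against 416, 446 and 461. *Hnrnpdl* had 44.9 and 45.7 against 63.4, 64.9 and 64.3. Both *Pelo*-/- libraries lay below all 3 controls for each of these genes, as they did for 31% of all genes tested. The log2 changes were -1.36 ± 0.12, adjusted p = 0.000831 for *Hnrnph1*, -0.87 ± 0.12, adjusted p = 0.0029 for *Hnrnpm*, -0.71 ± 0.09, adjusted p = 0.00216 for *Hnrnpa2b1* and -0.50 ± 0.07, adjusted p = 0.00369 for *Hnrnpdl* (edgeR). The *Hnrnpdl* call was lost without *Pelo*-/- replicate 1 (-0.49).

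*Ptbp2* (-0.41 ± 0.11, adjusted p = 0.0308) and *Tia1* (-0.35 ± 0.11, adjusted p = 0.0403) were also lower by edgeR. The *Ptbp2* call was lost without *Pelo*-/- replicate 1 (-0.45) or 2 (-0.37) or control replicate 2 (-0.35), and the *Tia1* call without any of the 5 libraries (-0.42 to -0.29). *Hnrnpl*, *Hnrnpab* and *Ptbp1* overlapped the controls, with changes of 0.02, 0.05 and 0.14. GC content moved with these values. Among the genes of lowest GC content (the lowest quartile), which includes *Ptbp2* (40.6% GC), *Tia1* (41.8%), *Hnrnpa2b1* (43.4%) and *Hnrnph1* (43.6%), the median log2 RNA value relative to controls was -0.32 to -0.29 in the *Pelo*-/- libraries, -0.46 to -0.09 in *Hbs1l*-/-, -0.43 to -0.06 in *Upf2*-labelled and -0.04 to 0.06 in control libraries. With the trend of each library with GC content removed, an alternative chosen after seeing the data, *Hnrnph1* (-0.97), *Hnrnpm* (-1.01), *Hnrnpdl* (-0.56) and *Hnrnpa2b1* (-0.31) stayed lower, and *Ptbp2* (0.23) and *Tia1* (0.28) changed sign.

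In the libraries labelled *Upf2*-/- the member that rose was *Hnrnpdl*, with 182, 159.9 and 147 CPM against 65.6, 64.8 and 65.3, a log2 change of 1.32 ± 0.11, adjusted p = 2.7e-05 (edgeR) that held without each library in turn. *Hnrnpab* was lower in each of these libraries (409, 398 and 276 against 462, 473 and 457 CPM) without passing the test (-0.36 ± 0.15, adjusted p = 0.108, edgeR). The other 7 genes overlapped the controls, with log2 changes from -0.31 (*Hnrnpm*) to 0.39 (*Ptbp2*).

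In *Hbs1l*-/- MEFs *Hnrnpl* RNA was 337, 309 and 318 CPM against 268, 256 and 256 (0.31 ± 0.09, adjusted p = 0.0332, edgeR), and *Hnrnpdl* was 70.4, 84.3 and 82.6 against 64.6, 63.8 and 64.5 (0.30 ± 0.09, adjusted p = 0.0484). The groups did not overlap (23% of all genes were higher in each *Hbs1l*-/- library), and both calls were close to the threshold. The *Hnrnpl* call was lost without any of the 6 libraries (0.27 to 0.33), and the *Hnrnpdl* call without *Hbs1l*-/- replicate 2 (0.24) or 3 (0.25) or any control library (0.29 to 0.31). *Ptbp1* was higher in each *Hbs1l*-/- library (802, 719 and 769 against 578, 627 and 684 CPM) without passing the test (0.28 ± 0.10, adjusted p = 0.0775). Without a call, *Hnrnpab* was also higher in each (472 to 512 against 451 to 466 CPM). *Tia1* was lower in each (11.03 to 13.66 against 14.61 to 15.17 CPM), as were 21.3% of all genes, and was not called.

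**Figure D2:**
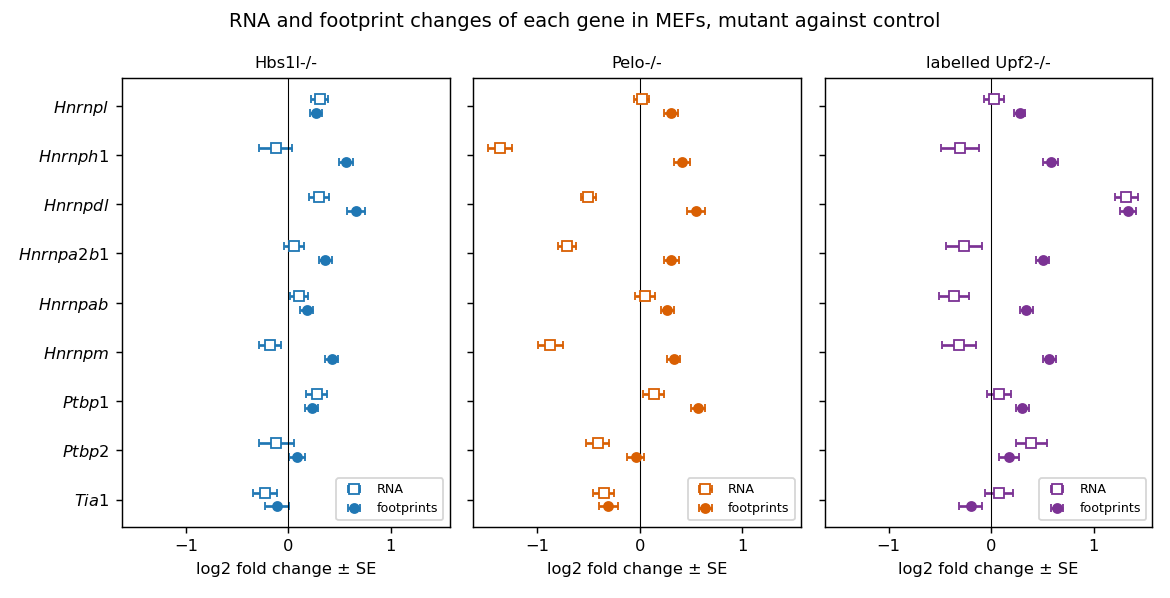
Log2 fold change of RNA (open squares) and of footprints (filled circles) of each gene in MEFs against controls, with bars of ± 1 SE from edgeR. In *Pelo*-/- MEFs RNA of *Hnrnph1* lies at -1.36 and its footprints at 0.41, and in the libraries labelled *Upf2*-/- the RNA and footprints of *Hnrnpdl* lie at 1.32 and 1.34.

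Footprints per RNA, called translation efficiency (TE), were tested as an interaction of footprint and RNA libraries in a single model. TE rose for 7 of the 9 genes in *Pelo*-/- MEFs (21.9% of 13701 genes rose), for 4 in the libraries labelled *Upf2*-/- (7.6% of 13302) and for none in *Hbs1l*-/- MEFs (0.0152% of 13146 genes were called in either direction). At an unadjusted p under 0.05 the *Hbs1l*-/- test held 4 of the 9 genes (16.1% of all genes), and DESeq2 called 2 (2.38% of all genes). In *Pelo*-/- MEFs the log2 TE changes were 1.78 ± 0.15, adjusted p = 3.52e-06 for *Hnrnph1*, 1.21 ± 0.13, adjusted p = 2.48e-05 for *Hnrnpm*, 1.05 ± 0.12, adjusted p = 3.89e-05 for *Hnrnpdl* and 1.02 ± 0.12, adjusted p = 3.58e-05 for *Hnrnpa2b1* (edgeR), calls that held without each library in turn. *Ptbp1* (0.44) lost its call without *Pelo*-/- RNA replicate 2 (0.41). *Ptbp2* (0.37) kept its call in 2 and *Hnrnpl* (0.29) in 1 of the 11 fits that left out a library, and *Ptbp2* TE changed sign (-0.26) after removal of the GC trend.

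In the libraries labelled *Upf2*-/- the 4 genes with higher TE were *Hnrnph1* (0.87 ± 0.22, adjusted p = 0.0145), *Hnrnpm* (0.87 ± 0.19, adjusted p = 0.00778), *Hnrnpa2b1* (0.76 ± 0.20, adjusted p = 0.0171) and *Hnrnpab* (0.69 ± 0.17, adjusted p = 0.0127, edgeR). Each held in all 12 fits that left out a library. *Hnrnpdl* had a TE change of 0.00 ± 0.14, with gene totals of RNA and footprints that rose alike. This RNA total holds all transcript types, while footprints were counted over coding sequence. Mean NMD RNA of *Hnrnpdl* was 75.1 TPM against 13.7 in controls, and its protein-coding RNA was 27.5 against 22.4 TPM. TE over protein-coding RNA alone was not tested. After removal of the GC trend, TE passed the test in the lower direction for *Tia1* in *Pelo*-/- (-0.58) and for *Tia1* (-0.54) and *Ptbp2* (-0.48) in *Upf2*-labelled MEFs.

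RNA of the 9 genes was then summed by transcript type, to ask which kind of transcript changed when each factor was lost. In the libraries labelled *Upf2*-/- 9 of the 27 gene and type sums of these genes rose and none fell. Of all 24447 sums 11% rose and 4.11% fell. The NMD sums rose for 4 of 6 genes (30.1% of 2297 NMD sums in all genes), with a median log2 change of 1.61 beside 0.84 for all NMD sums. The protein-coding sums were called for none of the 9 genes (8.16% higher and 6.46% lower in all genes), with a median of -0.17. That of *Hnrnpa2b1* includes *Hnrnpa2b1-202*, which rose (1.48). Its stop lies 157 nucleotides before the last junction, as in the NMD transcripts *Hnrnpa2b1-207* and *Hnrnpa2b1-209*. Retained-intron sums rose for 2 of 7 genes and the remaining types, mostly processed transcripts, for 3 of 5, where 10.9% and 9.96% of such sums rose in all genes. Of the 27 sums, 5 passed the filter on low counts only through the group in which they were higher, 3 of the 9 calls among them (the processed transcripts of *Hnrnpdl* and *Hnrnpm* and the retained-intron sum of *Hnrnpm*), and these 3 count as a description. Of the other 22 sums, 6 rose. With the GC trend removed, 13 of the 27 sums were called, 12 higher and 1 lower (over all genes 4487 sums, 3697 without it). The added calls were the protein-coding sums of *Hnrnpdl* (0.38) and *Ptbp2* (0.45) and the retained-intron sums of *Hnrnpdl* (0.97) and *Ptbp1* (-1.13). None of the 23 sums tested was called in *Hbs1l*-/- MEFs (9.62% of 22540 in all genes), 5 had an unadjusted p under 0.05 (27.2% of all sums), and DESeq2 called 4 (17% of all sums).

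*Hnrnpl* NMD RNA was 17.5, 17 and 17.5 TPM (abundance scaled to transcript length and library size) in the libraries labelled *Upf2*-/- and 3.21, 3.28 and 2.83 TPM in controls. *Hnrnpl* protein-coding RNA was 128, 163 and 127 against 135, 154 and 158 TPM. The NMD values were far apart and the protein-coding values overlapped, with log2 changes of 2.45 ± 0.15, adjusted p = 8.07e-05 and -0.17 ± 0.09, adjusted p = 0.236 (edgeR). *Hnrnpdl* NMD RNA was 87.4, 73.2 and 64.7 against 13.1, 14.9 and 13.1 TPM (2.39 ± 0.14, adjusted p = 5.68e-05). Its protein-coding RNA was 30.2, 32.5 and 19.7 against 19.3, 22.7 and 25.1 TPM (0.28 ± 0.14, adjusted p = 0.233). Most of the rise of the *Hnrnpdl* gene total thus lay in its NMD sum, and its protein-coding sum overlapped the controls. Its processed transcripts had 3.3, 2.04 and 2.29 TPM in the *Upf2*-labelled libraries and 0, 0 and 0.0727 in controls.

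*Hnrnpa2b1* NMD RNA was 31.7, 21 and 16.6 against 9.18, 9.84 and 11.4 TPM (1.08 ± 0.21, adjusted p = 0.0125, edgeR), a call lost without control replicate 2 (0.98). *Ptbp2* NMD RNA was 6.95, 4.69 and 3.4 against 0.99, 2.49 and 2.5 TPM (1.75 ± 0.30, adjusted p = 0.00751, edgeR). All *Upf2*-labelled values exceeded the controls in both genes. *Ptbp1* (0.79 ± 0.23, adjusted p = 0.0524) and *Tia1* (1.47 ± 0.84, adjusted p = 0.272) did not pass the test, the latter with 1.66, 1.06 and 0.415 against 0.655, 0 and 0.775 TPM, levels of very few reads.

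*Hnrnph1* and *Hnrnpm* have no annotated NMD transcript and differed in other types. Processed transcripts of *Hnrnpm* were 18.4, 9.35 and 6.37 TPM in the libraries labelled *Upf2*-/- and 0.417, 1.61 and 0.75 TPM in controls. Those of *Hnrnph1* were 43.6, 36.6 and 26.2 against 22.2, 21.7 and 21.2 TPM (0.61 ± 0.17, adjusted p = 0.0447, edgeR). The groups did not overlap in either gene. The *Hnrnph1* call was lost without *Upf2*-labelled replicate 1 (0.47) or 2 (0.56) or any control library (0.56 to 0.65). Retained-intron RNA of *Hnrnpm* was 2.42, 3.36 and 2.29 against 0.234, 0.438 and 1.04 TPM. That of *Hnrnpl* (0.77 ± 0.16, adjusted p = 0.0186, edgeR) lost its call without *Upf2*-labelled replicate 1 (0.69) or 2 (0.75) or any control library (0.72 to 0.79).

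The share of each gene's TPM that lay in NMD transcripts does not depend on the gene's total. For *Hnrnpl* it was 11.4, 9.05 and 11.6% in the libraries labelled *Upf2*-/- and 2.25, 2.01 and 1.71% in controls. For *Hnrnpdl* it was 70.5, 65.6 and 72.2% against 38.2, 38.1 and 32.2%. For *Hnrnpa2b1* it was 8.36, 5.78 and 8.43% against 2.87, 2.49 and 2.76%. In these genes the groups were apart by more than the spread within either. For *Ptbp1* the share was 13.1, 12.2 and 11.4% against 5.07, 8.05 and 8.38%, and for *Ptbp2* 39.6, 30.6 and 32.6% against 13.8, 20.2 and 23.6%. For *Tia1* it was 19.3, 13.2 and 6.89% against 10.03, 0 and 9.83%, which overlapped.

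The share was thus higher in every *Upf2*-labelled library for 5 of the 6 genes, where 33.8% of 3124 genes with NMD transcripts behaved so. The exact two-sided permutation p was 0.1 for each of the 5 genes, the smallest that 3 against 3 libraries allow, and 0.3 for *Tia1*. Mean shares were 10.7% against 1.99% for *Hnrnpl*, 69.4% against 36.2% for *Hnrnpdl*, 7.52% against 2.71% for *Hnrnpa2b1*, 12.3% against 7.17% for *Ptbp1* and 34.3% against 19.2% for *Ptbp2* (n = 3 each). Over whole libraries, NMD transcripts took 2.28% to 2.48% of TPM in the *Upf2*-labelled libraries and 1.78% to 2.06% in controls. edgeR's test of differential usage within a gene (diffSpliceDGE), applied to its transcript types, called 9 of 26 member sums, 8 higher and 1 lower, where 5.22% and 0.59% of 14915 sums were called, and 3 of the 8 were the sums of *Hnrnpdl* and *Hnrnpm* named above that passed the filter only through these libraries. The NMD type was used more in 5 of the 6 genes (19.3% of 2239 NMD types in all genes), namely in *Hnrnpl* (1.72 ± 0.10, adjusted p = 3.34e-09), *Hnrnpa2b1* (0.97 ± 0.19, adjusted p = 0.00428), *Hnrnpdl* (0.78 ± 0.11, adjusted p = 7.09e-05), *Ptbp1* (0.53 ± 0.15, adjusted p = 0.0354) and *Ptbp2* (0.98 ± 0.27, adjusted p = 0.042), while the protein-coding type of *Hnrnpdl* was used less (-0.69 ± 0.11, adjusted p = 0.000318). The calls for *Ptbp1* (0.41 to 0.61) and *Ptbp2* (0.88 to 1.21) held in 1 of the 6 fits that left out a library.

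The NMD shares in *Hbs1l*-/- MEFs were 1.69, 2.01 and 2.48% for *Hnrnpl* and 37.7, 38.6 and 40.6% for *Hnrnpdl*, which overlapped the controls. *Hnrnpa2b1* had 2.18, 1.89 and 1.27%, below all controls (exact permutation p = 0.1), as did 5.2% of 3058 genes. *Hnrnpdl* in *Pelo*-/- MEFs had 45.6 and 54.8%, above all controls (exact permutation p = 0.2, the smallest for 2 against 3), where 10.2% of 2981 genes did so, and *Hnrnpa2b1* had 2.27 and 2.47%, below all controls (exact permutation p = 0.2, 8.86% of genes). Protein-coding RNA of *Hnrnpdl* fell in the same cells (-0.80 ± 0.10, adjusted p = 0.00768, edgeR) and its NMD RNA had a change of 0.04.

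In *Pelo*-/- MEFs 7 of the 23 type sums fell and 1 rose (all sums, 9.05% lower and 6.9% higher of 21460). Protein-coding RNA fell for 4 of 9 genes, *Hnrnph1* (-1.42), *Hnrnpm* (-0.89), *Hnrnpdl* and *Hnrnpa2b1* (-0.72), where 12.4% of protein-coding sums fell in all genes. *Hnrnpa2b1* fell in its NMD (-0.84) and retained-intron transcripts (-0.77) too, and *Hnrnph1* in its processed transcripts (-1.03). Retained-intron RNA of *Hnrnpl* rose (0.81 ± 0.19, adjusted p = 0.0382, edgeR). All 8 calls were lost without *Pelo*-/- replicate 2, which leaves a single *Pelo*-/- library assumed to vary like the controls, and 3 held without *Pelo*-/- replicate 1. With the GC trend removed, 5 of the 23 sums were called (4 lower, 1 higher). The *Hnrnpa2b1* protein-coding (-0.33) and *Hnrnph1* processed sums (-0.43) lost their calls, and the *Hnrnpa2b1* retained-intron sum turned to 0.0112 without a call. None of the 22 usage tests was called in *Pelo*-/- or *Hbs1l*-/- MEFs by edgeR (0.182% of 12077 and 0.0924% of 12980 in all genes), and 2 and 1 of them had an unadjusted p under 0.05 (3.73% and 3.14% in all genes).

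The libraries labelled *Upf2*-/- were then set directly against those of the other mutants, which involves no control library. Against *Hbs1l*-/- MEFs 9 of 26 type sums were higher and 2 lower (all sums, 13.2% higher and 9.46% lower of 25104). NMD sums were higher for 4 of 6 genes (all NMD sums, 32.9%), namely *Hnrnpl* (2.06 ± 0.16), *Hnrnpdl* (1.98 ± 0.14), *Hnrnpa2b1* (1.59 ± 0.23) and *Tia1* (3.10 ± 0.86). Retained-intron sums were higher for 2 genes and processed transcripts for 3 (12.5% and 14.1% in all genes), and the protein-coding sums of *Hnrnpl* and *Hnrnpab* were lower (15.2% of protein-coding sums). Against *Pelo*-/- MEFs 10 of 25 sums were higher and 1 lower (all sums, 11.2% higher and 9.97% lower of 23961). NMD sums were higher for 5 of 6 genes there (30.1% in all genes), those of *Hnrnpl* (2.11 ± 0.21), *Hnrnpdl* (2.29 ± 0.16), *Hnrnpa2b1* (1.86 ± 0.26), *Ptbp2* (2.70 ± 0.35) and *Ptbp1* (0.60 ± 0.14), and processed transcripts for 3 (11.7%). With a library left out, *Tia1* against *Hbs1l*-/- kept its call in 2 of 6 fits (2.66 to 5.83, with very few reads) and *Ptbp1* against *Pelo*-/- in 2 of 5 (0.43 to 0.79), and the other NMD sums named kept theirs in each. Of the 11 calls against *Hbs1l*-/-, 4 (*Tia1* NMD, *Hnrnpm* retained-intron, *Hnrnpdl* and *Hnrnpm* processed) passed the filter only through the *Upf2*-labelled libraries, as did 3 of the 11 against *Pelo*-/- (*Hnrnpdl* retained-intron, *Hnrnpdl* and *Hnrnpm* processed), and these are descriptions.

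**Figure D3:**
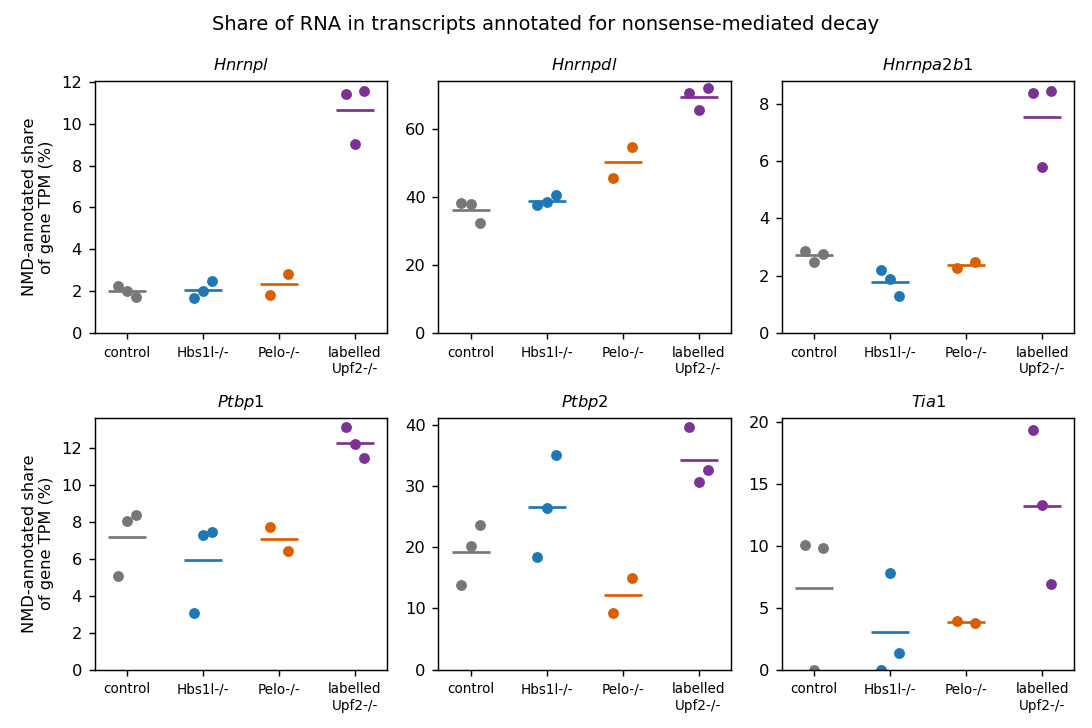
Percent of each gene's TPM in NMD transcripts, for the 6 genes with such transcripts, with a point per RNA library of MEFs and a bar at the group mean. The libraries labelled *Upf2*-/- lie above all controls for *Hnrnpl*, *Hnrnpdl*, *Hnrnpa2b1*, *Ptbp1* and *Ptbp2*, and *Tia1* overlaps.

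Single transcripts were then tested. In the libraries labelled *Upf2*-/- 7 of the 70 member transcripts tested rose and none fell (all transcripts, 4.37% higher and 0.985% lower of 40620). At an unadjusted p under 0.05 there were 21 (22% of all transcripts). Of the 70, 14 passed the filter on low counts only through the group in which they were higher, and 1 of the 7 calls, *Hnrnpdl-203*, was among them. *Hnrnpl-213*, the transcript with the 70-nucleotide exon and the TGA shown above, had 17.5, 17 and 17.5 TPM against 3.21, 3.28 and 2.83 in controls. It had 3.6, 3.93 and 4.75 in *Hbs1l*-/- and 3.45 and 4.82 in *Pelo*-/- MEFs. The *Upf2*-labelled values stood apart from all other libraries, with a change of 2.44 ± 0.15, adjusted p = 0.00136 (edgeR). *Hnrnpl-202*, without that exon, had 71.8, 90.7 and 73.1 against 83.8, 92 and 118 TPM and overlapped.

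*Hnrnpdl-205*, with its TAG in exon 1, had 69.6, 56.5 and 50.1 TPM against 9.43, 10.2 and 10.9, a change of 2.47 ± 0.14, adjusted p = 0.000957. *Hnrnpdl-201*, with the exon spliced behind the normal stop, had 17.8, 16.8 and 14.6 against 3.64, 4.77 and 2.17 TPM (2.19 ± 0.28, adjusted p = 0.0121, edgeR). *Hnrnpdl-203*, a processed transcript, had 3.3, 2.04 and 2.29 against 0, 0 and 0.0727 TPM. Groups did not overlap for any of the 3. *Hnrnpdl-203* had 0 estimated counts in 2 control libraries and 6.79 in the third, and it passed the filter on low counts only through the *Upf2*-labelled libraries, so its values are a description. The call for *Hnrnpdl-201* (1.93 to 2.39) was lost without any of the 3 *Upf2*-labelled libraries, and those for *Hnrnpdl-205* (2.37 to 2.55) and *Hnrnpl-213* (2.36 to 2.55) held in all 6 fits. The protein-coding *Hnrnpdl-202* had 25.3, 26.1 and 16.5 against 14.5, 17.5 and 16.8 TPM.

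*Hnrnpa2b1-202*, annotated as protein-coding but with the 136-nucleotide exon behind its stop, had 72.6, 70.6 and 42.6 TPM against 16, 21.3 and 26.7 (1.48 ± 0.21, adjusted p = 0.0154, edgeR). *Hnrnpa2b1-209* had 22.6, 10.9 and 11.1 against 2.62, 4.14 and 4.53 (1.94 ± 0.33, adjusted p = 0.0277). *Hnrnpa2b1-207*, with the same exon, had 9.12, 10.1 and 5.43 against 6.56, 5.7 and 6.88 and overlapped (0.28 ± 0.22, adjusted p = 0.524). *Hnrnpa2b1-204*, which ends in the 495-nucleotide exon, had 139, 130.5 and 61.9 against 145, 189 and 202 (-0.76 ± 0.25, adjusted p = 0.145), also without a call. *Hnrnpa2b1-201*, which lacks both exons, had 66.2, 60.3 and 36.8 against 78, 87.1 and 81.7 TPM, lower in each library without passing the test (-0.66 ± 0.17, adjusted p = 0.0823). The *Hnrnpa2b1-202* call held in 2 of the 6 fits that left out a library (1.39 to 1.67) and the *Hnrnpa2b1-209* call in 0 (1.57 to 2.15).

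The processed transcript *Hnrnph1-215*, with the 139-nucleotide exon skipped, had 21.8, 12.6 and 9.94 TPM in the libraries labelled *Upf2*-/- and 1.23, 1.79 and 2.99 in controls. The main *Hnrnph1-201* had 47.8, 45.7 and 23 against 43.1, 58.4 and 61.4 TPM. *Hnrnph1-215* rose by 2.79 ± 0.41, adjusted p = 0.0176 (edgeR), a call that held in 2 of the 6 fits that left out a library. *Hnrnpm-209*, with the 53-nucleotide exon skipped, had 18, 9.35 and 6.37 against 0, 1.61 and 0.75 TPM without overlap, and it passed the filter only through the *Upf2*-labelled libraries. *Ptbp1-203*, with the 31-nucleotide exon skipped, had 4.66, 6.59 and 4.84 against 11.3, 7.85 and 4.94 TPM and a change of -0.63 ± 0.37, adjusted p = 0.383 (edgeR) without a call.

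*Ptbp1-201* and *Ptbp2-206* each skip a 34-nucleotide exon of their own gene and have a near-identical stop region. *Ptbp1-201* had 30.6, 35.7 and 26.7 TPM against 9.95, 21.1 and 22.7, higher in each *Upf2*-labelled library (0.77 ± 0.25, adjusted p = 0.143, edgeR). *Ptbp2-206* had 5.06, 3.01 and 1.95 against 0.691, 2.49 and 2.06, which overlapped (0.88 ± 0.55, adjusted p = 0.411), and *Ptbp2-208*, with the same exon skipped, had 1.88, 1.67 and 1.45 against 0.3, 0 and 0.441 (2.63 ± 0.92, adjusted p = 0.161). None of the 3 passed the test one transcript at a time.

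Grouped by the place of the stop, the 11 transcripts tested whose stop lay over 50 nucleotides before the last junction had a median change of 1.94 in the libraries labelled *Upf2*-/- (0.28 to 2.63), and 5 rose, where 14.6% of 3025 such transcripts of all genes rose with a median of 0.86. The 28 others with a stop had a median of -0.26 (-0.87 to 1.12) and none was called (all genes, 3.04% higher of 23256, median -0.09). With the GC trend removed, *Hnrnpdl-202* among them was called higher (0.54). In *Hbs1l*-/- MEFs the 9 transcripts of the first kind had a median of 0.36 and the 28 others 0.12, and in *Pelo*-/- MEFs the 10 had -0.26 and the 29 others -0.38. In the *Upf2* comparison 4 of the 11 passed the filter only through the *Upf2*-labelled libraries, and the other 7, which hold the 5 calls, had a median of 1.94. These medians describe the members and were not tested, and transcripts of a gene share reads whose assignment kallisto estimates.

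Of 58 member transcripts tested, 8 fell in *Pelo*-/- MEFs and none rose (all transcripts, 1.64% lower and 0.722% higher of 34903). *Hnrnph1-201* had 25.1 and 22.3 TPM in *Pelo*-/- against 43.1, 58.4 and 61.4 in control MEFs, and *Hnrnph1-218*, a processed transcript, 4.2 and 3.19 against 12.2, 9.87 and 11.8. *Hnrnpm-201* had 43.2 and 34.9 against 54.4, 72.4 and 74.8. *Hnrnpa2b1-209*, which passed the filter only through the controls, had 0 estimated counts in both *Pelo*-/- libraries, at least 31.4-fold lower than the control mean against a floor of 3 counts per library. It was also at 0 in *Hbs1l*-/- replicate 3, beside 55.4 and 152 estimated counts in replicates 1 and 2, and how reads were assigned among the transcripts of this gene was not tested. These 4 transcripts were picked from the 8 called lower, so that their *Pelo*-/- values lay below all controls is a description. The log2 changes were -1.35 ± 0.11, adjusted p = 0.0299 for *Hnrnph1-201* and -1.79 ± 0.25, adjusted p = 0.0452 for *Hnrnph1-218* (edgeR). None of the 8 calls held without any library, and none after removal of the GC trend (*Hnrnph1-201* -0.97 and *Hnrnph1-218* -1.24), but under each of these settings no transcript of any gene was called, so the loss is not particular to the members. None of 59 member transcripts was called in *Hbs1l*-/- MEFs (1.31% of 36633 in all), with 6 at an unadjusted p under 0.05 (17.7% of all) and 4 called by DESeq2 (10.2% of all).

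**Figure D4:**
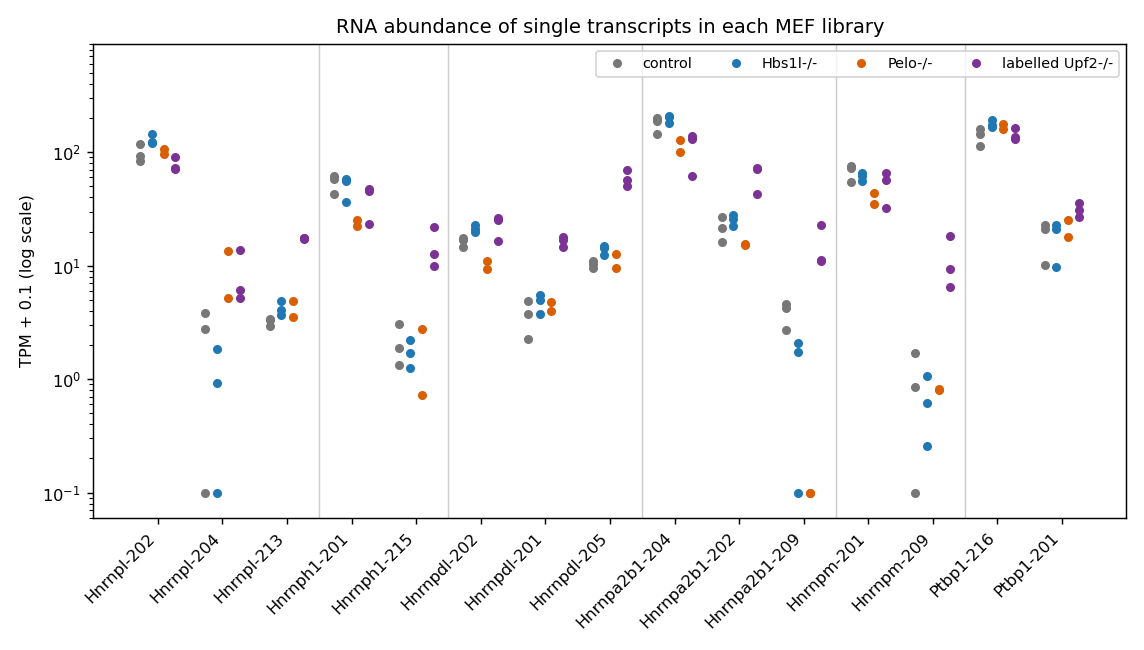
RNA abundance in TPM + 0.1 on a log axis for the most abundant protein-coding transcript of 6 genes and their transcripts with a log2 change over 0.7 and at least 5 TPM in the libraries labelled *Upf2*-/-, with a point per MEF library coloured by genotype. The rule picked transcripts for a high value in the libraries labelled *Upf2*-/-, so the plot shows their levels, such as 17 to 17.5 TPM for *Hnrnpl-213* and 50.1 to 69.6 TPM for *Hnrnpdl-205*, and is no test, and *Hnrnpl-204* reaches 13.4 TPM in a *Pelo*-/- library too.

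Footprints in whole embryos and cerebellum gave no call for any of the 9 genes. In *Hbs1l*-/- embryos 0 of 9 were called by edgeR (1.87% of 11416 genes in all), none at an unadjusted p under 0.05 (18.6% of all genes) and none by DESeq2 (3.78%). All 9 overlapped between genotypes, where 11.4% of all genes lay above and 12.3% below all wild-type libraries, with log2 changes from -0.35 ± 0.20 (*Tia1*) to 0.22 ± 0.14 (*Ptbp2*). *Hnrnpdl*, for example, changed by -0.05 ± 0.14 and *Hnrnph1* by 0.13 ± 0.14. Marker sums moved with genotype in embryos, with primitive erythroid markers at 3058 to 7854 CPM in *Hbs1l*-/- and 12440 to 16290 in wild type, embryonic heart at 201 to 316 against 466 to 486, neural tube at 53.4 to 115 against 125 to 127, and trophoblast at 47.1 to 164 against 1.14 to 3.69. Their part in the result was not tested.

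In the *Hbs1l* cKO cerebellum 0 of 9 genes were called by edgeR (0.0624% of 14430 genes in all) and none by DESeq2 (3.35%), with 2 at an unadjusted p under 0.05 (13.4% of all genes). *Ptbp1* had 69.9, 49.6 and 62.1 CPM in cKO and 43.1, 45.1 and 34.6 in controls. *Hnrnpab* had 359, 299 and 352 against 244, 264 and 261, and *Tia1* 42.9, 42 and 37.1 against 37.1, 35.7 and 36.2. The cKO libraries were at or above all controls for these 3 genes, where 9.38% of genes were higher in each cKO library. The changes were 0.57 ± 0.16, adjusted p = 0.186 for *Ptbp1* and 0.39 ± 0.13, adjusted p = 0.237 for *Hnrnpab* (edgeR). Beside them, granule cell progenitor markers summed to 212 to 312 CPM in cKO and 100.5 to 133 in controls, and Purkinje cell markers to 3525 to 3924 against 4636 to 6603, while granule neuron markers overlapped. Their part in the *Ptbp1* and *Hnrnpab* values was not tested.

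Levels across tissues were set on a single scale over the 30 footprint libraries, as a description, since tissue and batch cannot be told apart. *Ptbp1* footprints averaged 762 ± 41 CPM (SD, n = 3) in wild-type embryos, 549 ± 19.7 in the control MEFs of the *Hbs1l* batch and 34.2 ± 4.79 in control cerebellum. *Ptbp2* averaged 161 ± 6.79 in embryos, 147 ± 18.6 in cerebellum and 60.8 ± 1.9 in MEFs. *Ptbp1* was thus lowest in cerebellum and *Ptbp2* lowest in MEFs. The embryo and cerebellum means of *Ptbp2* differed by less than the SD of the cerebellum group, but by more than that of the embryo group. In the same groups *Hnrnpdl* averaged 239 ± 16.8, 105 ± 15.1 and 57.8 ± 6.43 CPM in embryos, cerebellum and MEFs.

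*Hnrnpl* (1202 ± 59.7, 331 ± 24.1 and 676 ± 11.7), *Hnrnpab* (1311 ± 62.5, 215 ± 11.9 and 622 ± 23.2) and *Hnrnpm* (904 ± 42, 141 ± 28 and 357 ± 13.5) were highest in embryos and lowest in cerebellum. *Hnrnph1* (910 ± 32.8, 317 ± 46.4 and 398 ± 31.1) had the same order. *Hnrnpa2b1* averaged 1332 ± 34.8 CPM in embryos, and its cerebellum (512 ± 75.2) and MEF values (533 ± 21.1) did not differ beyond their spread. *Tia1* ran from 36.1 ± 4.63 in embryos to 30.4 ± 0.15 in cerebellum and 26 ± 3.19 in MEFs, the narrowest range of the 9. Over the 30 libraries and 7725 genes with a mean of at least 20 CPM, the genes whose log2 footprint levels followed *Ptbp1* most closely were *Rrm2* (Pearson r = 0.995), *Pprc1* (0.994) and *Cdc20* (0.994), and those closest to *Ptbp2* were *Camsap3* (0.982), *Car7* (0.977) and *Car2* (0.977). These libraries share tissues and batches, so the correlations are descriptions.

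RNA levels per length can be compared between the genes. In control MEFs *Hnrnpa2b1* (319.7 to 414 TPM), *Hnrnpab* (264 to 324) and *Ptbp1* (213 to 285) had the most RNA, followed by *Hnrnpl* (142 to 166), *Hnrnpm* (71.3 to 102) and *Hnrnph1* (76.9 to 97.7), which overlapped, and *Hnrnpdl* (34.2 to 40.6). *Ptbp2* (7.17 to 12.3 TPM) and *Tia1* (6.53 to 8.8) were lowest and overlapped, and they were the members whose footprints did not rise.

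A list of 22 other RNA-binding genes of these families gave the background among relatives. Footprints rose for 11 of 22 in *Hbs1l*-/-, 13 in *Pelo*-/- and 12 in *Upf2*-labelled MEFs, and none fell. Of all genes 17.4%, 22.9% and 22.3% rose and 16.7%, 21.2% and 21.1% fell. The median log2 changes of the 22 genes were 0.20, 0.25 and 0.28. *Hnrnpu*, which encodes a nuclear matrix protein, rose by 0.53, 0.42 and 0.58, and *Hnrnpd*, an AU-rich element binding protein, by 0.50, 0.37 and 0.74. In embryos and cerebellum none of the 22 was called. RNA rose for 6 and fell for 1 in *Hbs1l*-/- (all genes, 12.7% and 10.4%), rose for 1 and fell for 8 in *Pelo*-/- (15.5% and 16.6%), and rose for 1 (*Hnrnph3*, 1.26) and fell for 2 in *Upf2*-labelled MEFs (13.2% and 6.76%). TE rose for 0, 10 and 9 of them in the same order (0.00761%, 21.9% and 7.6% of all genes). *Hnrnph1* shares sequence with its paralog *Hnrnph2*, whose RNA was also lower in *Pelo*-/- MEFs (-1.14), and reads common to paralogs or pseudogenes may be split between them in the deposited counts.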

How the data were processed

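The members and the lists used here were chosen with earlier results of these data known. Per the labels and the study's methods, the authors filtered footprint reads against ribosomal, small nucleolar and transfer RNA with Bowtie2 2.2.3, mapped them to mm10 with HISAT2 2.1.0, kept lengths typical of footprints, and deposited read counts per gene over coding sequence from featureCounts. How multi-mapping reads were counted is not given in the sources used here. RNA-seq libraries (KAPA stranded mRNA kit) were quantified by the authors with kallisto 0.42.4, and the deposited values are estimated counts and TPM per transcript. Estimated counts were summed per gene, or per gene and annotated transcript type, and rounded. TPM values were used for levels and shares, without a test across genes.

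Each comparison used its own mutant and control libraries, in edgeR 4.0.16 (R 4.3.3) with TMM normalisation, the filterByExpr filter, a quasi-likelihood F test and Benjamini-Hochberg adjustment over all features, and a call is an adjusted p of at most 0.05. The SE is the fold change divided by the square root of F. Tests of differences used an interaction over the libraries concerned, TE an interaction of footprint and RNA libraries, and usage diffSpliceDGE. As in the study, 100 histone genes were left out of footprint tests. CPM values are TMM-scaled within a comparison, and over all 30 footprint libraries for levels across tissues. Alternatives were DESeq2 1.42.0, RLE scaling, no filter, a replicate block, each library left out and, added after seeing the data, removal of the trend with GC content in 20 bins (GC from GENCODE M21 transcripts). The study used riborex for TE with RNA counts over exons, and here estimated counts stood in for them. The fits were tested on simulated counts. Exon structure and sequences come from GENCODE M21 (GRCm38), in which all 126 transcripts had the length and type of the files. Transcripts named are those of the highest TPM of each type per gene and the largest called changes, and others were chosen after their values were seen. Median totals were 3500348 counts in embryos, 21506450 in cerebellum and 12173386 in MEFs, and 32616747 estimated counts in RNA. Floors cover counting error only. Tables were made with Python 3.11.15, pandas 2.3.3 and scipy 1.17.1, and figures with matplotlib 3.10.9.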

Additional observations from a re-analysis of the deposited data

Results flagged for a closer look

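A test of the difference between mutants singled out 24 values, which are given here without an explanation. In all of them the libraries labelled *Upf2*-/- differed from another mutant at an adjusted p of at most 0.05 (edgeR), and each value is a log2 difference, *Upf2*-labelled minus the other mutant. The processed-transcript values of *Hnrnpdl* and *Hnrnpm* against both mutants, those of *Tia1* NMD and *Hnrnpm* retained-intron RNA against *Hbs1l*-/- and that of *Hnrnpdl* retained-intron RNA against *Pelo*-/- MEFs are descriptions, since these sums passed the filter on low counts only through the *Upf2*-labelled libraries.

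Against *Hbs1l*-/- MEFs the NMD sums differed by 2.06 for *Hnrnpl*, 1.98 for *Hnrnpdl*, 1.59 for *Hnrnpa2b1* and 3.10 for *Tia1*. The processed transcripts differed by 7.25 for *Hnrnpdl*, 4.51 for *Hnrnpm* and 0.65 for *Hnrnph1*, and the retained-intron sums by 1.33 for *Hnrnpdl* and 2.06 for *Hnrnpm*. Protein-coding sums were lower, at -0.50 for *Hnrnpl* and -0.54 for *Hnrnpab*. The values of *Hnrnpab* (-0.63 to -0.38) and *Hnrnph1* (0.50 to 0.79) kept their call in 1 of 6 fits that left out a library and that of *Tia1* (2.66 to 5.83) in 2, and the other 8 in all 6.

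Against *Pelo*-/- MEFs the NMD sums differed by 2.11 for *Hnrnpl*, 2.29 for *Hnrnpdl*, 1.86 for *Hnrnpa2b1*, 2.70 for *Ptbp2* and 0.60 for *Ptbp1*. Processed transcripts differed by 5.59 for *Hnrnpdl*, 4.05 for *Hnrnpm*, 1.58 for *Hnrnph1* and -1.05 for *Ptbp1*. *Hnrnpdl* also differed in its retained-intron (2.29) and protein-coding sums (1.02). The *Ptbp1* values kept their call in 2 (NMD, 0.43 to 0.79) and 1 (processed, -1.32 to -0.71) of 5 fits that left out a library and the *Hnrnpdl* protein-coding value in 4, and the other 8 in all 5. The differences of 7.25 and 5.59 depend on the prior count, since the *Hnrnpdl* processed transcripts had between 0 and 2.82 estimated counts in *Hbs1l*-/- and 0 and 3.4 in *Pelo*-/- libraries.

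The footprint change of *Hnrnpdl* was larger in the *Upf2*-labelled libraries by 0.67 than in *Hbs1l*-/- and by 0.79 than in *Pelo*-/- MEFs, and both calls held in all 12 fits that left out a library.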

How the results depend on the processing

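Counts below are calls among the 9 genes, or their sums and transcripts, by edgeR unless another tool is named. With DESeq2 the type sums in *Hbs1l*-/- MEFs went from 0 to 4 calls, the transcripts in *Hbs1l*-/- from 0 to 4 and in *Upf2*-labelled MEFs from 7 to 18, TE in *Hbs1l*-/- from 0 to 2 and the footprint difference to *Pelo*-/- from 1 to 2. RNA gene totals in *Hbs1l*-/- went from 2 calls to 1 with RLE scaling and 0 without the filter. With retained-intron transcripts added to the NMD share, 2 genes and not 1 lay above the controls in *Pelo*-/- MEFs. Removal of the GC trend, chosen after seeing the data, gave 2 type sums and 1 transcript in *Hbs1l*-/- (over all genes 2784 sums and 921 transcripts, 2169 and 481 without it), 5 sums and 0 transcripts in *Pelo*-/- (8 and 8 without it; over all genes 2808 sums and 0 transcripts, 3424 and 826 without it) and 2 gene totals in *Upf2*-labelled MEFs (1 without it; over all genes 3878 and 3194). In *Upf2*-labelled MEFs it also gave 13 type sums and 10 transcripts (9 and 7 without it). Over all genes these were 4487 sums and 2936 transcripts (3697 and 2175 without it). Removal of the trend turned the sign in *Pelo*-/- MEFs of *Ptbp2* (RNA 0.23, TE -0.26), *Tia1* (RNA 0.28, TE -0.58) and the *Hnrnpa2b1* retained-intron sum (0.0112). The cause was not tested.

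Same-numbered mutant and control libraries correlated at r of -0.237 to 0.219 in their deviations from the group means, and in no comparison did every pair exceed 0.1. Deviations within groups this small cannot decide whether the numbers pair the samples, and no pairing was used unless stated. With the replicate number as a block, calls went from 8 to 0 for type sums and from 8 to 0 for transcripts in *Pelo*-/-, from 7 to 2 for transcripts in *Upf2*-labelled and from 2 to 1 for RNA totals in *Hbs1l*-/- MEFs.

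With each library left out in turn, the counts ranged as follows. NMD shares above controls ran from 0 to 2 in *Hbs1l*-/- and 1 to 2 in *Pelo*-/- (2 without mutant replicate 1 in both). Type sums ran from 0 to 7 in *Pelo*-/- (0 without mutant replicate 2, 3 without replicate 1) and 5 to 10 in *Upf2*-labelled MEFs (5 without control replicate 2). RNA totals ran from 0 to 1 in *Hbs1l*-/- (each of the 6 libraries), 3 to 5 in *Pelo*-/- (3 without mutant replicate 1) and 1 to 2 in *Upf2*-labelled MEFs (2 without mutant replicate 3). Transcripts ran from 0 to 0 in *Pelo*-/- (each of the 5 libraries) and 2 to 6 in *Upf2*-labelled MEFs (2 without mutant replicate 1 or 2, 4 without control replicate 1 or 2). TE ran from 0 to 1 in *Hbs1l*-/- (1 without RNA control replicate 1) and 4 to 6 in *Pelo*-/- (4 without mutant RNA replicate 2), and the footprint difference to *Pelo*-/- from 1 to 2 (2 without mutant footprint replicate 3 of *Pelo*-/- or replicate 3 of the *Upf2* control pool).

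Under other settings 97 of 114 counts, and 159 of 185 with a library left out, stayed within 1.5 times the reported count. Single values kept direction and call, or moved by less than 1 SD, in 1474 of 1643 cases under other settings and 2049 of 2376 with a library left out. Over all features, calls went from 3424 to 1 for *Pelo*-/- type sums and from 2175 to 112 for *Upf2*-labelled transcripts with the block, from 481, 826 and 2175 to 3738, 4496 and 5639 transcripts (*Hbs1l*, *Pelo*, *Upf2*-labelled) with DESeq2, from 2 to 313 for *Hbs1l* TE with DESeq2, and with a library left out to between 28 and 2309 in embryos and between 0 and 560 in cerebellum. With any library left out, no transcript of any gene was called in *Pelo*-/- or *Hbs1l*-/- MEFs (826 and 481 in the full sets). Over all genes the calls with a library left out ranged from 47 to 3058 for *Pelo*-/- type sums (3424 in the full set), 1880 to 2966 for *Upf2*-labelled type sums (3697), 398 to 1196 for *Hbs1l*-/- type sums (2169), 567 to 1278 for *Upf2*-labelled transcripts (2175) and 1817 to 2663, 1506 to 4802 and 1800 to 3201 for RNA totals (*Hbs1l*, *Pelo*, *Upf2*-labelled; 3542, 4727 and 3194). Embryo footprint libraries had the lowest median total of the 3 tissues.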
